A study of Sus scrofa with 6 samples.

Results

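The genes described here are 9 targets of the tumour suppressor p53 and genes of growth arrest: MDM2, CDKN1A, CDKN1B, BTG1, BTG2, GADD45A, GADD45B, TP53I3 and BAX. Each was taken as every probe set that carries that 1 symbol in the platform annotation. Of the 9 genes, 8 had such a probe set, with 11 probe sets in all, out of 6765 genes with a named probe set and 23999 probe sets tested in the series. MDM2 had none under this rule and is not analysed here.

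The arrays, Affymetrix porcine expression arrays, compared OBGF400, a neuroblast line from pig olfactory bulb, with PK15, a pig line that the labels call non-neuronal and of epithelial origin. Neither line was treated. OBGF400 grew in DMEM/F12/HAM and PK15 in minimum essential medium with added amphotericin B, each with 10% bovine calf serum and the same antibacterial agents. For each line, 9 cultures gave RNA for 3 pools, and each pool went on 1 array, so a p-value measures the spread between pools of 1 line. Medium, line and any batch cannot be told apart in this design, and in these bulk samples neither can fewer cells of a kind and less RNA per cell.

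p53 is a transcription factor that is stabilised after DNA damage and other stress. It switches on genes that halt the cell cycle, repair DNA or start apoptosis, and among them is its own ubiquitin ligase, MDM2, which closes a feedback loop. CDKN1A (p21) is the best known arrest target and blocks cyclin-dependent kinases, as does its relative CDKN1B (p27), which is regulated mostly without p53 and mainly through protein turnover. BTG1 and BTG2 are antiproliferative proteins that act on messenger RNA deadenylation, and BTG2 is also an immediate early gene. GADD45A and GADD45B belong to a small family of stress sensors that bind kinases and cell cycle proteins. TP53I3 is a quinone oxidoreductase and BAX a pore-forming protein of the mitochondrial outer membrane, both counted among the apoptotic targets. Several of these genes respond to growth factors, serum and other stress without p53.

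Values are the deposited log2 signals of a probe set, on a scale whose lower limit, called the floor here, is 2.13. All differences are OBGF400 minus PK15 on this scale. A gene is called when limma's two-sided test gave an adjusted p under 0.05 over all 6765 genes, with the probe set of highest mean over all arrays standing for its gene. Within a line the arrays correlated at 0.997 to 0.998 for OBGF400 and at 0.996 for PK15 across probe sets, and between the lines at 0.860 to 0.865. The lines differ widely, so the background is high. Of all genes, 60.8% were called, 23.9% higher and 36.8% lower in OBGF400, and 66.9% had no overlap between the arrays of OBGF400 and PK15.

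Control transcripts added to every sample give 2 further scales on which each difference was computed again. The hybridization scale sets each array by transcripts added just before hybridization, which averaged 10.16 in OBGF400 and 10.99 in PK15. The poly-A scale sets it by the dap and thr transcripts, added to the RNA before labelling, which averaged 9.09 in OBGF400 and 8.24 in PK15. These controls differed between the lines in opposite directions. The other poly-A controls, lys and phe, averaged 6.14 in OBGF400 and 6.34 in PK15, a difference of -0.20 and so opposite to that of dap and thr, and no scale was set from them. Every value on the poly-A scale therefore rests on dap and thr alone. Among all genes the median difference was 0.82 on the hybridization scale and -0.86 on the poly-A scale. Differences smaller than these shifts can therefore change sign between scales.

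Among the 8 measured members, 5 were higher in OBGF400 (BTG2, CDKN1B, BTG1, CDKN1A and GADD45B), 2 were lower (GADD45A and TP53I3) and BAX was not called. For 7 of the 8, no OBGF400 array overlapped the PK15 arrays. These 7 of 8 stand against backgrounds of 60.8% called and 66.9% not overlapping, and so few genes cannot set the members apart from the rest. Their differences ran from -1.86 for TP53I3 to 4.14 for BTG2, with a median of 0.76, against a median of -0.002 over all genes.

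**Figure D1:**
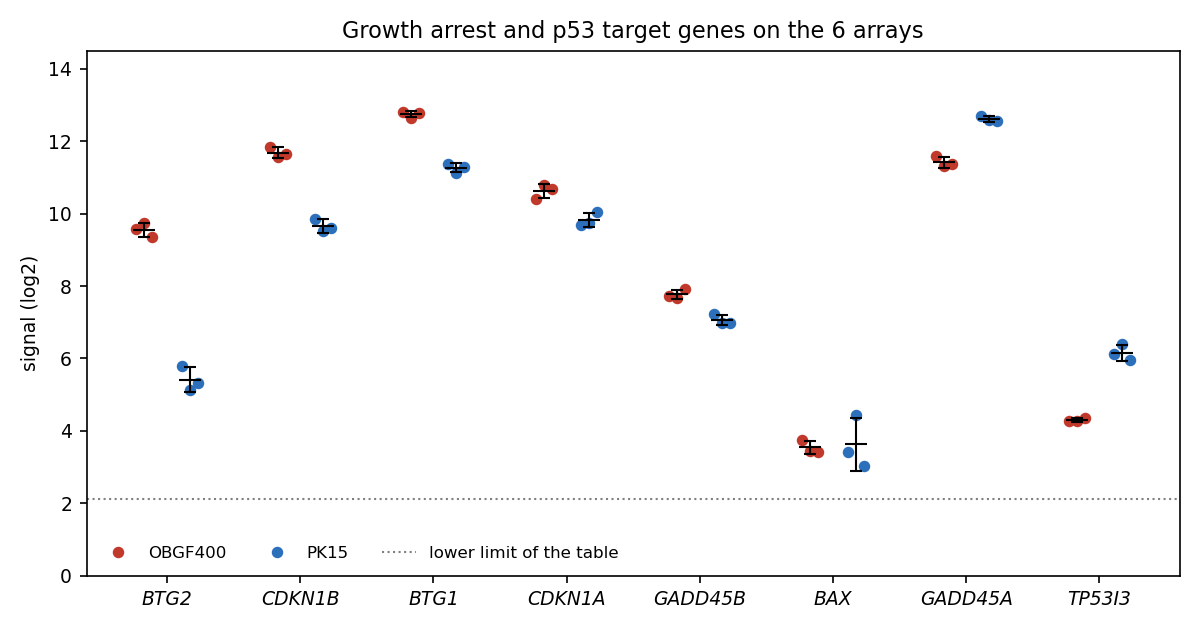
Log2 signal (y axis) of the 8 measured members on each array, in order of their difference. Red points are the 3 OBGF400 arrays and blue points the 3 PK15 arrays, black bars give the mean and SD, and the dotted line is the floor of 2.13. The red and blue points are apart for every gene except BAX, with red on top for BTG2, CDKN1B, BTG1, CDKN1A and GADD45B, and blue on top for GADD45A and TP53I3.

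Both cyclin-dependent kinase inhibitors were higher in OBGF400. CDKN1A had signals of 10.42, 10.79 and 10.67 on the OBGF400 arrays, against 9.67, 9.75 and 10.04 on the PK15 arrays. The groups did not overlap, although PK15 replicate 3 and OBGF400 replicate 1 came close. The mean was 10.63 ± 0.19 in OBGF400 and 9.82 ± 0.19 in PK15 (SD, n = 3 each), a difference of 0.80 (95% interval 0.41 to 1.20, 1.75-fold, limma adjusted p = 0.00824). On the poly-A scale the CDKN1A difference was -0.050 and was not called.

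CDKN1B had 3 probe sets. The one of highest signal gave 11.84, 11.56 and 11.65 in OBGF400, against 9.86, 9.52 and 9.60 in PK15. All 3 OBGF400 arrays lay well above the highest PK15 array, and the difference was 2.02 (95% interval 1.69 to 2.36, 4.07-fold, limma adjusted p = 0.000196). A second probe set gave 7.64, 7.40 and 7.37 in OBGF400 and 4.94, 5.05 and 5.76 in PK15, a difference of 2.22 (adjusted p = 0.00264 over all probe sets, of which 41.9% were called). The other one was at the floor in both lines, with a mean of 2.16 in OBGF400 and 2.14 in PK15, and so gave no level. These 2 measured probe sets differed in the same direction and by a similar size. Averaging all 3, the floor one included, lowered the difference to 1.42.

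The CDKN1B difference was the larger one. Computed within each array, which removes any scaling of the array, the CDKN1B difference exceeded that of CDKN1A by 1.22 ± 0.27 (SE, 95% interval 0.47 to 1.97). The within-array values of the lines did not overlap, and the exact permutation p was 0.1, the smallest that 3 arrays against 3 can give. It was also 0.1 after adjustment over the 3 such pairs compared.

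The antiproliferative genes BTG1 and BTG2 were higher in OBGF400, and BTG2 had the largest difference of all members. BTG2 had signals of 9.56, 9.73 and 9.36 in OBGF400, against 5.80, 5.12 and 5.32 in PK15. Every OBGF400 array was far above every PK15 array. The difference was 4.14 (95% interval 3.56 to 4.72, 17.6-fold, limma adjusted p = 0.000114). The PK15 level is low, and with 32 added to the linear values, which damps differences of dim signals, it was 3.39. Of all genes, 2.87% had a larger difference than BTG2.

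BTG1 was bright in both lines, with 12.80, 12.65 and 12.78 in OBGF400 and 11.38, 11.13 and 11.29 in PK15. The means were 12.74 ± 0.08 in OBGF400 and 11.27 ± 0.12 in PK15 (SD, n = 3 each). The difference was 1.47 (95% interval 1.26 to 1.69, 2.78-fold, adjusted p = 0.000133 in limma), a size that 10.1% of all genes exceeded upwards. Within arrays, the BTG2 difference exceeded the BTG1 difference by 2.67 ± 0.20 (SE, 95% interval 2.11 to 3.23, exact permutation p = 0.1). Their relative TOB1, an antiproliferative protein of the same family named here after its values were seen, was lower in OBGF400, at 10.02 ± 0.10 against 10.57 ± 0.08 in PK15 (SD, n = 3 each, difference -0.55, limma adjusted p = 0.00244). On the deposited scale, not every measured gene of the BTG and TOB family was therefore higher in OBGF400. The TOB1 difference is smaller than the shift of 0.82 on the hybridization scale, so its sign reverses there.

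On the deposited scale GADD45A and GADD45B went in opposite directions. GADD45A had signals of 11.60, 11.31 and 11.37 in OBGF400, against 12.70, 12.58 and 12.55 in PK15, so that every OBGF400 array was below every PK15 array. The difference was -1.18 (95% interval -1.44 to -0.93, limma adjusted p = 0.000428), which makes OBGF400 2.27-fold lower. On the hybridization scale it was -0.36 and still called.

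GADD45B had 2 probe sets, and both were called higher in OBGF400. The probe set that stands for the gene gave 7.74, 7.67 and 7.92 in OBGF400 and 7.23, 6.98 and 6.98 in PK15, a difference of 0.71 (95% interval 0.43 to 0.99, 1.64-fold, limma adjusted p = 0.00372). The other gave 7.65, 7.43 and 7.51 in OBGF400 and 6.62, 5.85 and 5.75 in PK15, a difference of 1.46 (adjusted p = 0.0123 over all probe sets). PK15 replicate 1 was the highest PK15 array on both. On the poly-A scale the GADD45B difference was -0.14 and not called.

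The gap between GADD45A and GADD45B does not depend on array scaling, but their opposite signs do. On the poly-A scale both differences were below 0, at -2.04 for GADD45A and at -0.14, without a call, for GADD45B. Within arrays, the GADD45B difference exceeded the GADD45A difference by 1.90 ± 0.12 (SE, 95% interval 1.55 to 2.24). The lines did not overlap on it, with the smallest possible exact permutation p of 0.1. The third family member, GADD45G, was called higher in OBGF400, with 6.46, 4.84 and 5.52 in OBGF400 against 3.21, 3.74 and 3.74 in PK15. Its spread in OBGF400 was wide, at 5.61 ± 0.81 against 3.57 ± 0.31 in PK15 (SD, n = 3 each, difference 2.04, limma adjusted p = 0.0179, 0.91 with 32 added). The GADD45G call was lost without OBGF400 replicate 3 (2.09, adjusted p = 0.0563), without PK15 replicate 1 (1.86, adjusted p = 0.061) and with the replicate number as a block (adjusted p = 0.0822).

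**Figure D2:**
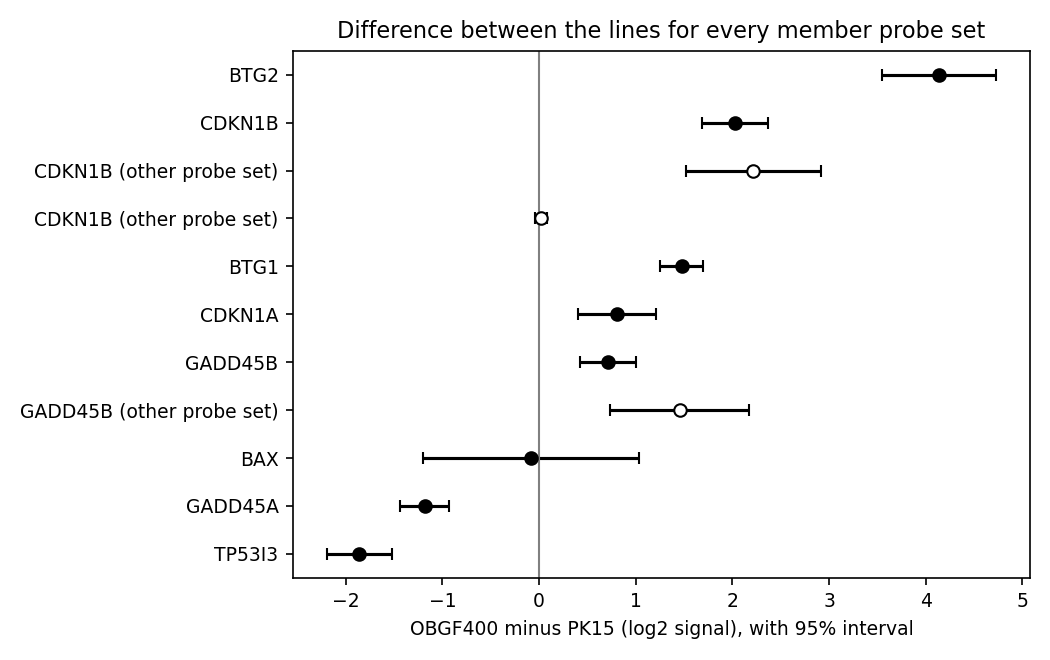
Difference OBGF400 minus PK15 in log2 signal (x axis) with its 95% interval for the 11 member probe sets, from the fit over all probe sets. Filled points stand for their gene, and open points are the other probe sets of CDKN1B and GADD45B. BTG2 lies farthest to the right at 4.14, BAX spans 0, and GADD45A and TP53I3 lie left of 0.

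Of the apoptotic targets, TP53I3 was lower in OBGF400 and BAX was not called. TP53I3 had signals of 4.26, 4.26 and 4.36 in OBGF400, against 6.11, 6.39 and 5.96 in PK15. The groups did not overlap, and the difference was -1.86 (95% interval -2.19 to -1.53, 3.63-fold lower, limma adjusted p = 0.00024). These signals are low on the array, the value of OBGF400 replicates 1 and 2 was identical, and with 32 added the difference was -1.002.

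BAX was dim in both lines, with 3.75, 3.45 and 3.43 in OBGF400 and 3.43, 4.44 and 3.02 in PK15. The groups overlapped, and PK15 replicate 2 stood apart from its line. The difference was -0.09 (95% interval -1.18 to 1.00, limma adjusted p = 0.99). The interval spans about 2-fold in each direction, so a change smaller than that was not detectable here. Without PK15 replicate 2 it was 0.32 (adjusted p = 0.253).

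Array scale mattered for the smaller differences. BTG2, CDKN1B and BTG1 remained called higher, and GADD45A and TP53I3 called lower, on these scales and under every other alternative run. CDKN1A and GADD45B took the opposite sign on the poly-A scale, without a call, and BAX took the sign of the shift, at 0.74 on the hybridization scale and -0.94 on the poly-A scale, both called. Relative to the shift of all genes the order of the members stayed as deposited, since a scale moves each member by the same amount.

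**Figure D3:**
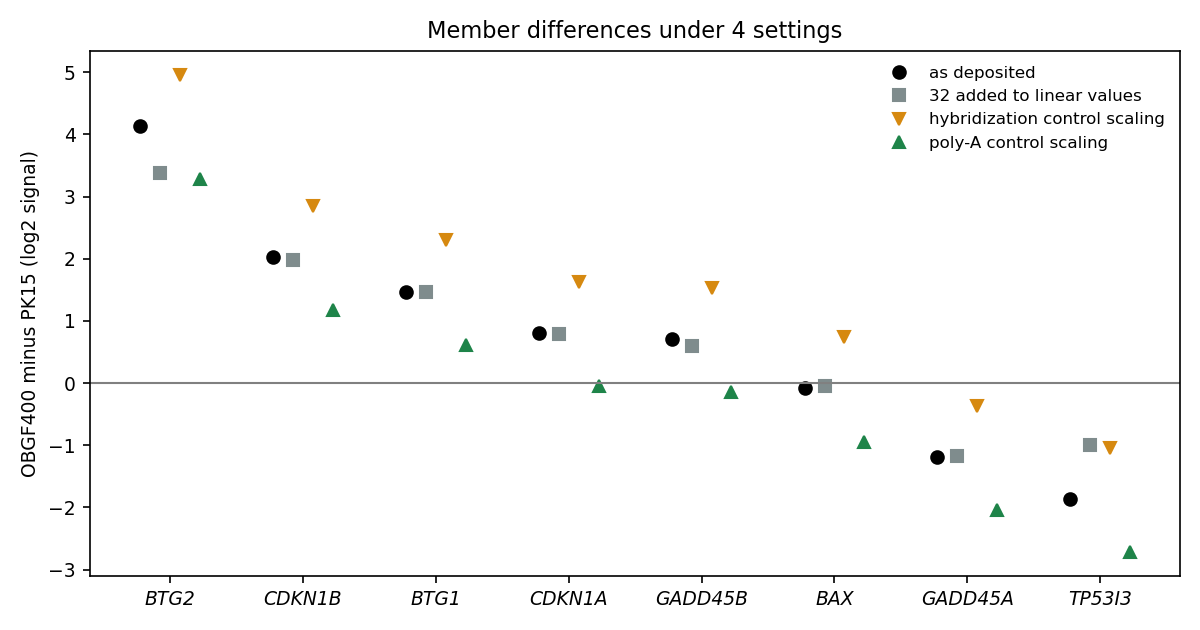
Difference OBGF400 minus PK15 in log2 signal (y axis) of each member under 4 settings, shown by symbol. The hybridization scale lifts and the poly-A scale lowers each member by a constant. BTG2, CDKN1B and BTG1 lie above 0 and GADD45A and TP53I3 below 0 in all 4, whereas CDKN1A, GADD45B and BAX do not keep 1 side.

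The members were next set beside cell division genes, since growth arrest proteins act on the machinery that these genes build. Of 28 measured, 23 were lower in OBGF400, 0 higher and 5 not called (36.8% of all genes were lower), with a median difference of -2.16. On the deposited scale the largest falls were those of the mitotic kinases NEK2 (2.68 ± 0.26 in OBGF400 against 9.49 ± 0.05 in PK15, difference -6.82) and AURKB (-6.76) and of CDC20, which activates the anaphase-promoting complex (-6.44). With 32 added these differences were -4.29 for NEK2, -4.45 for AURKB and -4.56 for CDC20, and BIRC5, a chromosomal passenger protein named after its values were seen, then fell most (-5.11). TOP2A, the DNA topoisomerase of dividing cells, named after its values were seen, had a difference of -4.38. On the hybridization scale 18 were lower and 4 higher, and on the poly-A scale 27 were lower and 0 higher. Cell division itself was not measured.

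Cell division genes also varied among the OBGF400 pools. Their mean signal was 6.30, 7.19 and 6.68 on OBGF400 replicates 1, 2 and 3, against 9.45, 9.58 and 9.54 in PK15, and 23 of the 28 were highest on replicate 2 within OBGF400. Their median SD was 0.46 in OBGF400 and 0.15 in PK15. Replicate 2 was also the OBGF400 array with the lowest CDKN1B, BTG1, GADD45A and GADD45B signals, and the one with the highest CDKN1A and BTG2 signals. The members' SD within OBGF400 was at most 0.19, and with 3 pools no relation between members and cell division genes was tested.

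Among cyclins, kinases and genes of CDKN1B turnover, 13 of 23 measured were lower in OBGF400, 2 were higher and 8 had no call (median difference -1.08). The list's 65.2% called lies near the 60.8% of all genes, of which 36.8% were lower. The mitotic cyclins CCNB2 (-6.49, or -4.87 with 32 added) and CCNB1 (-5.15) and the phosphatase CDC25B (-5.80, or -4.04 with 32 added), which activates CDK1, fell most. CDK2, the kinase that CDKN1A and CDKN1B inhibit, named after its values were seen, averaged 7.50 ± 0.30 in OBGF400 against 7.54 ± 0.31 in PK15 (SD, n = 3 each) and was not called. WEE1, a kinase that restrains CDK1, was higher (1.46). PCNA, the replication clamp that CDKN1A binds, was lower (11.12 ± 0.35 in OBGF400 against 11.90 ± 0.06 in PK15, SD, n = 3 each, difference -0.77, limma adjusted p = 0.0241). The PCNA call was lost without OBGF400 replicate 3, without any 1 of the PK15 replicates and with the replicate number as a block (adjusted p = 0.0823), and on the hybridization scale the difference was 0.050.

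CDKN1B protein is marked for degradation by a ubiquitin ligase built of SKP1, CUL1, RBX1 and SKP2 with the cofactor CKS1B. The scaffold CUL1 was higher in OBGF400 (11.47 ± 0.03 against 10.36 ± 0.18 in PK15, SD, n = 3 each, difference 1.12, limma adjusted p = 0.00062), a call lost on the poly-A scale (0.26). CKS1B, named after its values were seen, was lower (8.35 ± 0.22 in OBGF400 against 11.93 ± 0.17 in PK15, SD, n = 3 each, difference -3.58). SKP2 was at the floor on all 3 OBGF400 arrays and at 2.13, 2.36 and 2.13 in PK15, so its probe set gave no usable level. Over the whole list, 10 were higher against 10 lower on the hybridization scale, but 1 against 21 on the poly-A scale.

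MDM4 has no probe set named for it in the annotation and was not analysed here. Of 16 regulators and partners of p53, 4 were higher in OBGF400, 6 were lower and 6 had no call (median difference -0.15). The 62.5% called lies near the background of 60.8%. TP53BP2, which binds p53 and favours its apoptotic targets, was higher (12.10 ± 0.03 in OBGF400 against 9.78 ± 0.07 in PK15, SD, n = 3 each, difference 2.31, limma adjusted p = 5.63e-06). So were USP7 (0.69), which removes ubiquitin from p53 and MDM2, and RFWD2 (0.67), a ubiquitin ligase of p53 also called COP1. On the poly-A scale these probe sets were at -0.17 for USP7 and -0.19 for RFWD2, without calls. The other USP7 probe set was higher by more (2.42, limma adjusted p = 0.000414 over all probe sets), and the other RFWD2 probe set was at the floor in both lines. The checkpoint kinases CHEK2 (3.97 ± 0.22 in OBGF400 against 7.06 ± 0.19 in PK15, SD, n = 3 each, difference -3.09, or -1.79 with 32 added) and ATM (-0.92, adjusted p = 0.0142) were lower. Both signal DNA damage to p53. The ATM call was lost without PK15 replicate 3 (-0.87, adjusted p = 0.0521) and on the hybridization scale (-0.10). RPL5, a ribosomal protein that binds MDM2, was lower by deposited values (-0.47) and higher on the hybridization scale (0.36). The list as a whole had 14 genes higher against 1 lower on the hybridization scale, but 1 higher against 12 lower on the poly-A scale.

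Other p53 target genes also went in both directions. Of 25 measured, 10 were higher in OBGF400, 10 were lower and 5 had no call (median difference -0.03), against 23.9% higher and 36.8% lower among all genes. TP53INP2 is counted in this list, but it is its relative TP53INP1 that is p53-inducible, and TP53INP1 has no named probe set. TP53INP2, which has a role in autophagy, was higher (7.74 ± 0.14 in OBGF400 against 4.13 ± 0.23 in PK15, SD, n = 3 each, difference 3.61, or 2.31 with 32 added). SESN1, a sestrin that restrains mTORC1 signalling, had signals of 8.12, 7.54 and 7.95 in OBGF400 and 5.05, 5.26 and 4.74 in PK15, and its other probe set was also called higher (1.89). DDB2, a DNA damage recognition protein, was higher (5.07 ± 1.00 in OBGF400 against 2.25 ± 0.11 in PK15, SD, n = 3 each, difference 2.82, or 0.89 with 32 added) by 1 of its 3 probe sets. The lower ones were led by PERP (-12.18), a desmosomal protein, and SFN (-9.31), a 14-3-3 protein of epithelial cells, with PERP at the floor in OBGF400 against 14.33 ± 0.03 in PK15, and SFN at 2.86 in OBGF400 against 12.17 ± 0.10 in PK15. The size of the PERP difference depends on the floor and was -9.15 with 32 added. SFN was dim in OBGF400, and its difference was -6.88 with 32 added. The kinase PLK2 was lower by 4.52 on the log2 scale.

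PERP and SFN belong to epithelium, and most epithelial and mesenchymal markers differ between these lines. Among all genes 23.9% were higher and 36.8% lower in OBGF400. Of 9 epithelial markers, PERP among them, 8 were lower in OBGF400, and the log2 of their summed linear signal was 5.63 to 5.74 in OBGF400 and 16.63 to 16.66 in PK15. Of 10 mesenchymal markers 8 were higher, with sums of 16.48 to 16.55 in OBGF400 and 14.12 to 14.24 in PK15. FN1, which was bright in both lines (14.25 in OBGF400 and 14.15 in PK15) and not called, made up nearly all of the PK15 sum, and the median difference of the mesenchymal markers was 9.74. Of 8 neuroblast and neuron markers, UCHL1, NCAM1 and MAP2 were higher, STMN1 was lower and 4 (STMN2, GAP43, ELAVL4 and SNAP25) were at the floor in both lines, while DCX, TUBB3, NES, SOX2 and PAX6 have no named probe set and were not analysed here. Sums of 7 glial markers were 5.05 to 5.26 in OBGF400 and 8.75 to 9.03 in PK15. Most of the PK15 sum came from GFAP (7.74 in PK15) and MBP (7.87), the only 2 called, both lower in OBGF400. Sums of 6 leukocyte markers were 6.28 to 6.58 in OBGF400 and 11.84 to 11.94 in PK15, where AIF1 (10.72) and LAPTM5 (10.94) made up most. Of these 6, 3 were lower in OBGF400, CD14 was higher (1.03) and 2 were not called. PTPRC was at the floor in both lines. The part of cell type in the members' differences was not tested. With the hybridization scale 15 p53 targets were higher against 8 lower, but 4 against 16 with the poly-A scale.

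Among 28 other arrest and quiescence genes, 7 were higher in OBGF400, 9 lower and 12 not called, 3 of these at the floor in both lines, with a median of -0.11. The 57.1% called lies near the 60.8% of all genes. TXNIP, a thioredoxin-binding protein that slows growth, was higher (12.98 ± 0.09 in OBGF400 against 9.45 ± 0.05 in PK15, SD, n = 3 each, difference 3.53, limma adjusted p = 4.01e-06). LIN52, a subunit of the DREAM complex that represses cell cycle genes, was also higher (2.40, or 1.63 with 32 added). RBL2, another subunit of that complex named after its values were seen, was lower (7.95 ± 0.07 in OBGF400 against 9.32 ± 0.05 in PK15, SD, n = 3 each, difference -1.36). CDKN3, a phosphatase of CDK2 that is itself a cell cycle gene, was lower (8.43 ± 0.21 in OBGF400 against 11.49 ± 0.19 in PK15, SD, n = 3 each, difference -3.06), as were the transcription factor KLF4 (-2.69) and GADD45GIP1 (-1.81), a mitochondrial ribosome protein that binds GADD45 proteins. CDKN2C, an inhibitor of CDK4 and CDK6 named after its values were seen, was lower (-1.16), and CDKN2B was at the floor in both lines. With the hybridization scale 20 were higher against 5 lower, but 5 against 21 with the poly-A scale.

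Partners of BAX in apoptosis were lower in OBGF400 for 13 of 18 measured, with 2 higher, 3 without a call and a median difference of -0.73. Among all genes 36.8% were lower and 23.9% higher. The initiator caspase CASP8 (3.81 ± 0.23 in OBGF400 against 8.06 ± 0.23 in PK15, SD, n = 3 each, difference -4.26, or -2.70 with 32 added), the BH3-only protein BAD (-2.07) and the mitochondrial nuclease ENDOG (-1.96) had the largest falls on the deposited scale. With 32 added BAD was at -1.85 and ENDOG at -1.42, and DIABLO, an antagonist of caspase inhibitors named after its values were seen, was then at -1.85. The lower genes were not only ones that promote apoptosis. MCL1 (-0.95) and BCL2L1 (-0.90, limma adjusted p = 0.0215), which oppose apoptosis and are named after their values were seen, were also lower. TMBIM6, also called BAX inhibitor 1, was higher (12.81 ± 0.06 in OBGF400 against 11.82 ± 0.09 in PK15, SD, n = 3 each, difference 0.99) by 3 of its 4 probe sets, a call lost on the poly-A scale (0.13). BNIP3L, a mitophagy receptor, was higher (0.61) by 1 of 2 probe sets and at -0.25 without a call on the poly-A scale. BAK1, the closest functional relative of BAX, had 3.67, 3.24 and 2.92 in OBGF400 against 3.02, 3.12 and 3.12 in PK15 and was not called. On the hybridization scale the list split into 7 higher and 6 lower, and on the poly-A scale into 0 higher and 16 lower.

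BTG2 and the GADD45 genes also belong to the early response to serum and stress, and genes of that response split as well. Of 23 measured, 9 were higher in OBGF400, 10 were lower and 4 had no call (median difference 0.03), beside 23.9% of all genes higher and 36.8% lower. The nuclear receptors NR4A2 (10.14 ± 0.30 in OBGF400 against 3.55 ± 0.38 in PK15, SD, n = 3 each, difference 6.59, or 4.72 with 32 added) and NR4A3 (3.57, or 1.51 with 32 added, by 1 of 2 probe sets) and the NF-kappaB inhibitor NFKBIA (2.71) were higher. The transcription factor FOS (9.94 ± 0.33 in OBGF400 against 13.12 ± 0.20 in PK15, SD, n = 3 each, difference -3.17), the ERK phosphatase DUSP6 (-2.35) and the stress factor ATF3 (-1.84) were lower. With the hybridization scale 14 were higher against 4 lower, but 8 against 14 with the poly-A scale.

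**Figure D4:**
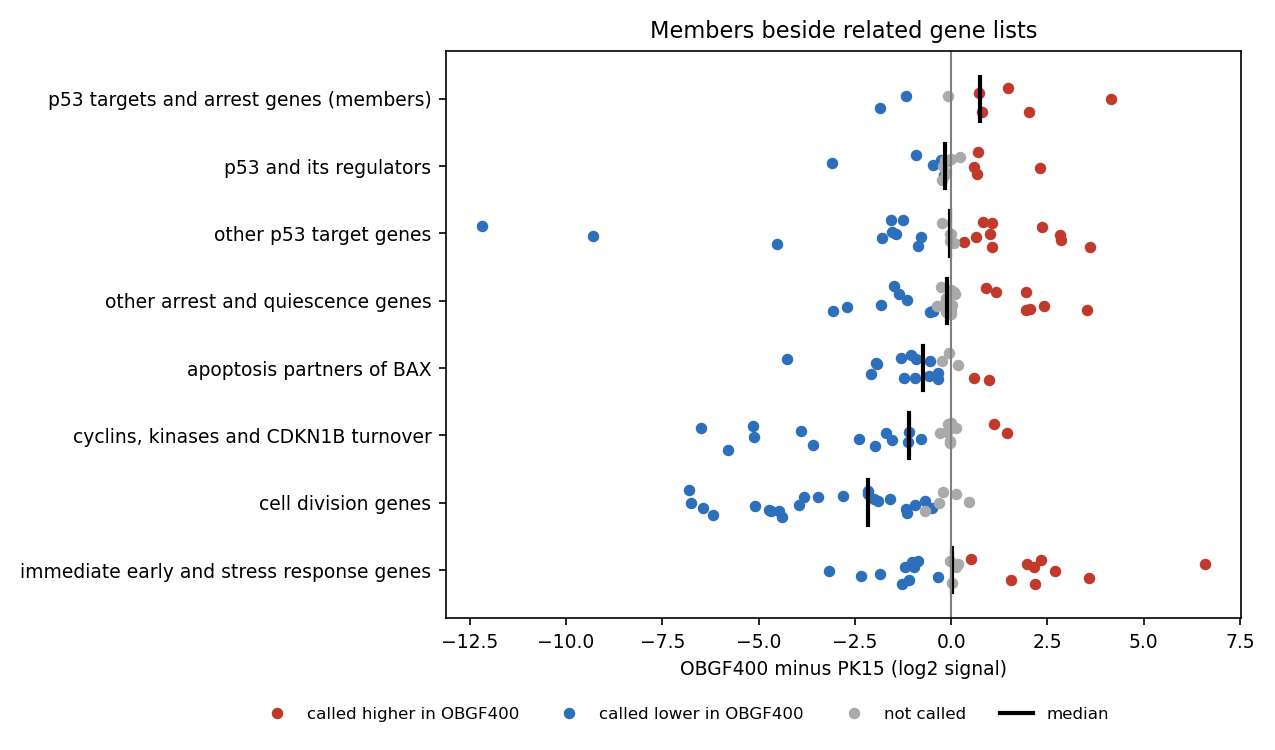
Difference OBGF400 minus PK15 in log2 signal (x axis) of each gene of the members and of 7 related lists. Red points are called higher in OBGF400, blue points called lower and grey points not called, black bars are medians, and the vertical spread of points within a list is for visibility. The medians are 0.76 for the members and -2.16 for cell division genes. The p53 target, arrest and early response lists each hold red points right of 0 and blue points left of 0.

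The genes whose 6 values lay closest to those of each called member, after centring each gene on its own mean, are given as a description over 6 arrays of 2 lines. They were LRP6 and DHRS4 for BTG2 (root mean square difference 0.10 and 0.15), WDR1 and PRRC2C for CDKN1B (0.08 and 0.09), and CD164 and LEPROT for BTG1 (0.04 and 0.06). For CDKN1A they were ALG8 and RECQL (0.04 and 0.08), and for GADD45B EDC4 and AFF1 (0.07 and 0.08). For GADD45A they were RETSAT and PFDN4 (0.03 and 0.07), and for TP53I3 GCHFR and RABL3 (0.06 and 0.06). No member was among the nearest genes of another. Only 2 genes were taken for each member out of 4112 called genes, so this does not show that the members are unlike.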

How the data were processed

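The authors deposited a log2 signal for every probe set on every array. The package affy is named, without a version, per the submitters' processing notes. How background was corrected and how arrays were normalized is not given in the sources used here, and that the scale is log2 was read from the values. Per the labels' protocols, 8 µg of RNA of each pool was labelled by a one-cycle method. Array means were 5.41 to 5.42, and 25.8% to 27.3% of an array's values were its minimum, where there is no order. A gene is at the floor where all 3 arrays of a line lie within 0.1 of it. The number of arrays limits the precision.

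Of 24123 probe sets, 124 controls were left out. Symbols came from the platform annotation, in which 10069 tested probe sets had 1 symbol, 198 several and 13732 none. The lines were compared across all genes with limma 3.58.1 (lmFit, eBayes) in R 4.3.3 and p-values adjusted by Benjamini-Hochberg, and tables and plots were made in Python 3.11.15. Alternatives to these settings are given in the closing section. The code was tested on simulated data. Members, lists and alternatives were chosen with earlier results of these data known. Named genes are all members, the called genes of each list that rose most and fell most (at most 3 each way), and 11 fixed names, of which PCNA, SKP2, GADD45G and BAK1 had a probe set. Likeness took the 2 called genes nearest to each called member. The titles share replicate numbers, but arrays of the same number deviated together with correlations of only 0.006 to 0.039, so the numbers were not treated as pairs. No sequence is shown.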

Additional observations from a re-analysis of the deposited data

How the results depend on the processing

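Over quantile normalization, median centring, the 2 control scales, filters that keep probe sets over the 25th percentile, over the median or varying by at least 0.1, a trended and robust variance, array weights, 32 added to linear values, averaged probe sets of a gene, a threshold of 0.01, the replicate block and leaving out each array, 146 of 151 member values kept their direction and side of the threshold. The exceptions were CDKN1A (-0.050) and GADD45B (-0.14) under the poly-A scale and BAX under the poly-A scale (-0.94), the hybridization scale (0.74) and without PK15 replicate 2 (0.32). Leaving out each array gave -0.39 to 0.32 for BAX and -0.0073 to 0.37 for BAK1. BAX gave no value above the median filter. Of 755 values of the other named genes, 729 kept both. Those that changed sign were RPL5 (0.36), SKP2 (0.75) and PCNA (0.050) under the hybridization scale, USP7 (-0.17), RFWD2 (-0.19), BNIP3L (-0.25) and BAK1 (-0.67) under the poly-A scale, and BAK1 (-0.0073) without OBGF400 replicate 1. Members higher numbered 5 and members lower 2 under the replicate block, which changed no member's call and gave 3782 genes against 4112. The poly-A scale gave 3 members higher and 3 lower, and the hybridization scale 6 higher and 2 lower. Probe sets differing numbered 10060 as deposited, 19464 with median centring, 21558 with the hybridization scale and 21593 with the poly-A scale, where probe sets at the floor in both lines are called by the constant shift. The same holds for listed genes at the floor. Under the hybridization scale, counts higher and lower were 14 and 1 for p53 regulators, 15 and 8 for p53 targets, 20 and 5 for arrest genes, 7 and 6 for BAX partners, 10 and 10 for cyclins, 4 and 18 for cell division genes, and 14 and 4 for early response genes. Under the poly-A scale they were 1 and 12, 4 and 16, 5 and 21, 0 and 16, 1 and 21, 0 and 27, and 8 and 14 in the same order. At a threshold of 0.01, 3 p53 regulators were lower and 6 p53 targets higher. Without the dim probe sets (25th percentile, or median), or without those that vary little, 1 cell division gene was higher, and with the mean of probe sets 1 BAX partner was higher. Leaving out each array gave 0 to 1 cell division genes higher and 3 to 6 p53 regulators lower. The cause of these changes, other than the constant shift and the lower threshold, was not tested. Dim signals limit TP53I3, since the median SD was 0.21 for probe sets of 4 to 6 and 0.08 above 12. BAX lay below 4, where no such SD was computed.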
